A study of Schmidtea polychroa with 132 samples.

Results

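In Schmidtea polychroa, a freshwater planarian, 55 of the 15121 transcript models used met a rule for a peak in embryos of stages 4, 5 and 6. The members were chosen from their own levels. A transcript entered where the lowest of its stage 4, stage 5 and stage 6 medians was at least 20 CPM (the transcript's counts scaled to a common library total of 1000000 transcript counts) and where that median plus 1 was at least 4 times the highest median of stages 1, 2, 3, 7, 8 and yolk plus 1. The 55 made up 0.364% of the transcripts used and 1.21% of the 4532 that reached 20 CPM in the median of each of stages 4 to 6. The peak itself is therefore how they were found, and its height is given as a description with no test. The table gives transcripts by number only, so they are named here by their IDs and no function is given to them.

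RNA was measured by CEL-Seq, which barcodes polyadenylated RNA and counts reads near its 3′ end, in 132 libraries with synthetic spike-in RNAs. Stages 1, 2 and 3 had 6, 29 and 22 embryos, stages 4, 5 and 6 had 10, 13 and 16, and stages 7 and 8 had 16 and 15. Another 4 libraries were labelled yolk and 1 protist. The embryos came from a laboratory population kept at 20 °C, with capsules opened over a span of 15 days, and no group carried a mutation or a treatment. Each library of stages 1 to 8 came from 1 whole embryo, so fewer cells that contain a transcript and less of it in each cell cannot be told apart.

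Planarian egg capsules hold several embryos among a large mass of separate yolk cells. As background from planarian embryology, the embryo first builds a temporary embryonic pharynx, swallows the yolk cells with it and grows into a hollow sphere around them. The temporary pharynx is later lost, and the definitive pharynx, nervous system, eyes and gut are formed from cells of the embryonic wall. No markers of these structures could be matched to the numbered transcripts.

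The shallowest library had 8530 transcript counts, the deepest 1620829 and the median one 336516.5, and 7 libraries of stages 1 to 3 held under 5% of that median. Clustering the proportions of 26 spike-ins placed the libraries in 4 sets. Set C held every library of stages 4 to 6, and set D held every stage 7 library and 14 of the 15 stage 8 libraries. Sets A and B held stages 1 to 3, yolk and the protist sample. Both edges of the peak thus coincide with a change of set, and at those edges set and stage cannot be told apart. One stage 8 library, replicate 12, fell in set C with the stage 4 to 6 embryos (in set D when 1 rather than 0.5 was added to the spike-in counts). In 4 of the stage 4 to 6 libraries (stage 4 replicates 3, 5 and 10 and stage 6 replicate 13), 115 transcripts that were high in the protist sample took up a share over 10 times the median of those stages. It came to 55.9% of counts in stage 4 replicate 3 and 31.5% in stage 4 replicate 10. None of the 55 transcripts was among those 115.

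**Figure D1:**
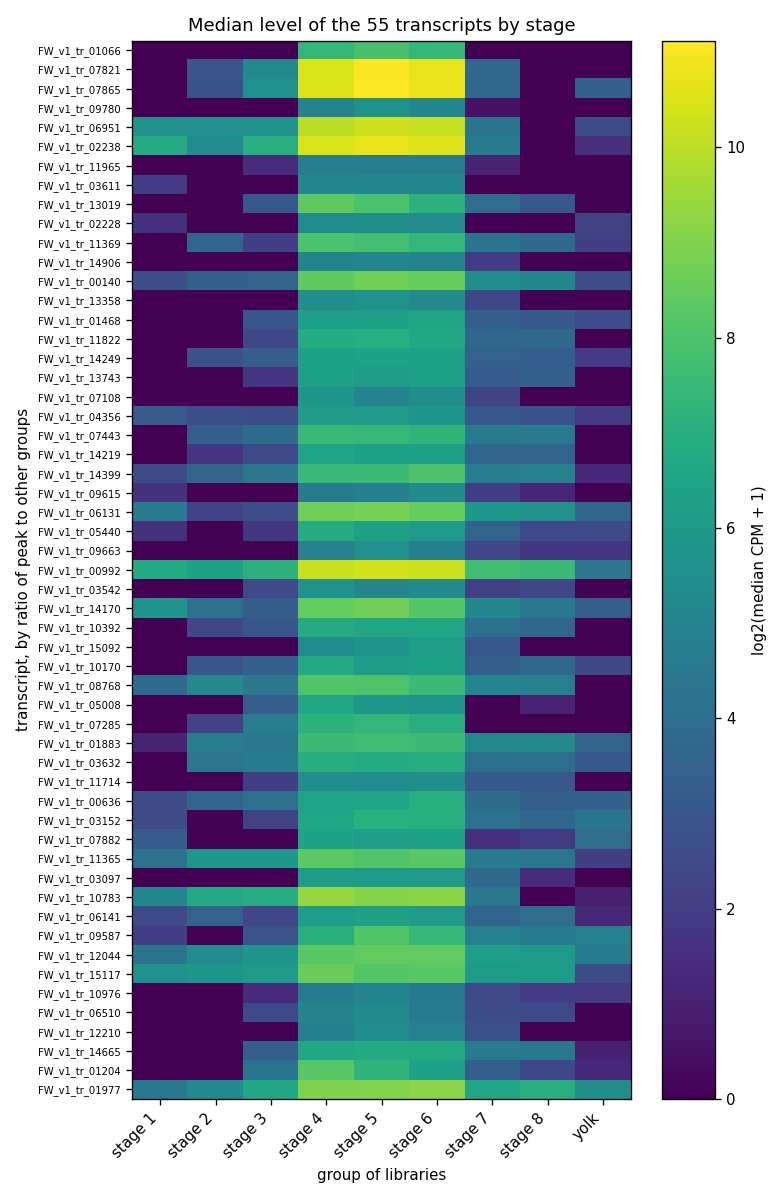
Median level of each of the 55 transcripts (rows, ordered by the ratio that chose them) in each group of libraries (columns), with colour giving log2 of median CPM plus 1. The 5 brightest rows in stages 4 to 6 are the 5 transcripts over 1000 CPM, and the top 8 rows are dark in stage 8 while many lower rows keep an intermediate colour in stages 7 and 8.

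The 55 transcripts covered a wide range of levels. Their medians over the 39 libraries of stages 4 to 6 ran between 23.4 and 1868 CPM, with 98.3 CPM for the middle transcript. A median of 100 CPM or more was reached by 27 of them and 1000 CPM or more by 5. Those 5 transcripts, FW_v1_tr_07865, FW_v1_tr_07821, FW_v1_tr_02238, FW_v1_tr_00992 and FW_v1_tr_06951, took 49.7% of the CPM of all 55. Of the 55, 30 had a count in every one of the 39 libraries, and the most weakly detected had one in 34. The ratio of the peak to the highest other group had a median of 5.53 and ran between 4.01 and 163.6, and 6 transcripts had a ratio of 10 or more. The highest of the 3 peak medians fell in stage 4 for 21 transcripts, in stage 5 for 26 and in stage 6 for 8. The group that came closest to the peak was stage 1 for 4 transcripts, stage 2 for 2, stage 3 for 12, stage 7 for 27, stage 8 for 7 and yolk for 3.

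FW_v1_tr_01066 had the highest ratio of all, and its medians outside the peak were 0. The lowest, median and highest values were 14.9, 165.1 and 280.4 CPM in stage 4 embryos (n = 10), 108.9, 232.2 and 502.6 CPM in stage 5 embryos (n = 13) and 63.4, 162.6 and 415.6 CPM in stage 6 embryos (n = 16). All 39 libraries of stages 4 to 6 had counts of it. In stage 7 it had 3 counts, all in 1 of 16 libraries, and in stage 8 it had no count in 15 libraries. With a floor of 3 counts over the stage 8 group, its pooled level in the lowest of the 3 peak stages was at least 616.4-fold higher than in stage 8. Before the peak it was not absent, since 10 of 29 stage 2 embryos and 10 of 22 stage 3 embryos had counts of it, with a highest level of 207.0 CPM in stage 3. In yolk it had 0, 0, 0 and 3.81 CPM.

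FW_v1_tr_07865 and FW_v1_tr_07821 had the highest levels. Their counts were 43172 and 42011 over all libraries. Compared library by library, with no scaling to those totals, the counts differed by no more than counting noise (chi-square p = 0.339). The totals were not tested on their own. The pair may therefore share reads and is read here as 1 signal. For FW_v1_tr_07865 the lowest, median and highest values were 141.9, 1491 and 2092 CPM in stage 4, 991.4, 2228 and 4743 CPM in stage 5 and 420.9, 1804 and 3981 CPM in stage 6. Values were 0, 12.4 and 93.0 CPM in stage 7, and 1 count was found in all 15 stage 8 libraries together. No stage 7 or stage 8 embryo reached the lowest embryo of stages 4 to 6. The earlier embryos were spread over the whole range, with a lowest, median and highest value of 0, 5.78 and 364.8 CPM in stage 2 and 0, 47.5 and 1474 CPM in stage 3. In yolk its values were 26.0, 0, 0 and 19.1 CPM.

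**Figure D2:**
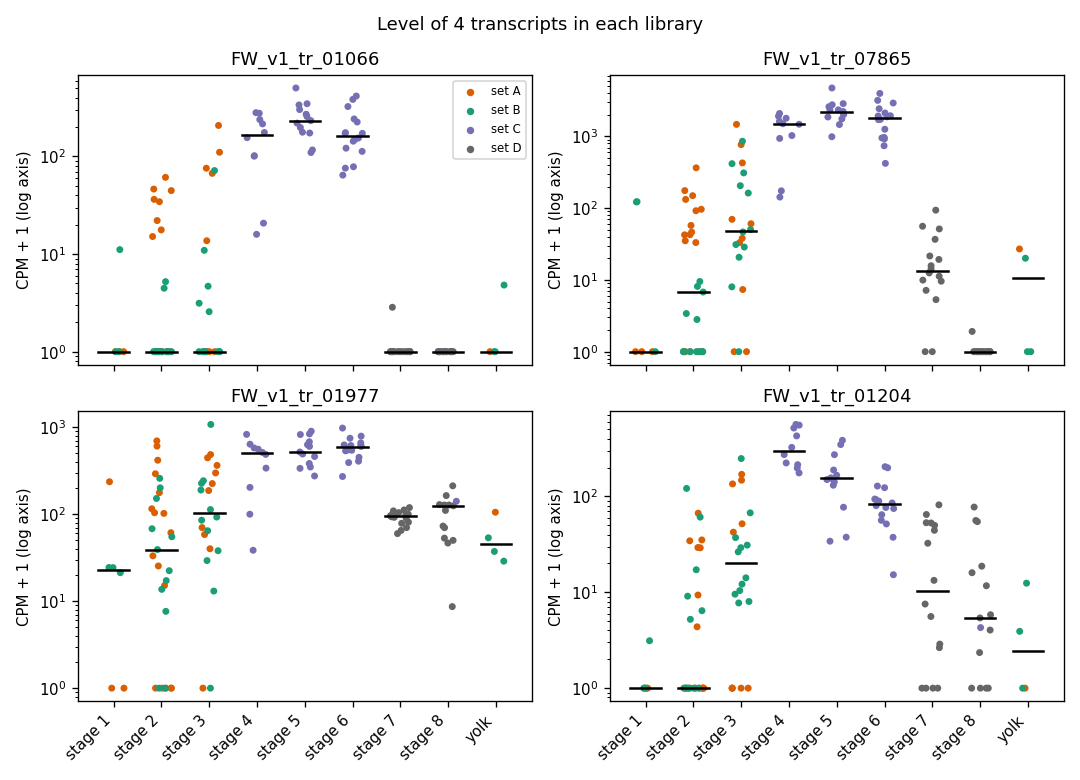
CPM plus 1 (log axis) of 4 transcripts in each embryo or yolk library (points, coloured by spike-in set) with the group median as a bar: the highest ratio (FW_v1_tr_01066), the highest level (FW_v1_tr_07865) and the 2 members closest to the threshold (FW_v1_tr_01977 and FW_v1_tr_01204). The first 2 are at or near 0 in stage 8, FW_v1_tr_01977 keeps a median of 123.3 CPM there, and FW_v1_tr_01204 is highest in stage 4.

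At the threshold the contrast was much smaller. FW_v1_tr_01977 was the last transcript inside, with a ratio of 4.01 that set 497.3 CPM in stage 4 against 123.3 CPM in stage 8. FW_v1_tr_01204 stood next to it with a ratio of 4.08, which set 81.8 CPM in stage 6 against 19.3 CPM in stage 3. The nearest transcripts outside were FW_v1_tr_13207 with a ratio of 3.97 (90.9 CPM against 22.1 CPM in stage 3) and FW_v1_tr_07997 with a ratio of 3.94 (46.2 CPM against 11.0 CPM in stage 7).

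Summed over the 55 transcripts, the share of transcript counts averaged 0.185% ± 0.141 over the 6 embryos of stage 1, 0.237% ± 0.238 over the 29 of stage 2 and 0.361% ± 0.414 over the 22 of stage 3 (mean ± SD). Stage 4 averaged 1.35% ± 0.505 (n = 10), stage 5 averaged 1.69% ± 0.221 (n = 13) and stage 6 averaged 1.51% ± 0.315 (n = 16). After the peak, stage 7 averaged 0.132% ± 0.0242 (n = 16) and stage 8 averaged 0.107% ± 0.0236 (n = 15), and in yolk it was 0.0742%, 0.0267%, 0.0271% and 0.0395% in the 4 samples. Relative to stages 7 and 8, the share in stages 4 to 6 was 12.6-fold higher, and 9.82-fold higher without the pair that may share reads. The lowest of the 39 peak embryos, at 0.373%, lay above the highest of the 31 embryos of stages 7 and 8, at 0.183%. By number of transcripts, the median embryo had 52 of the 55 at 20 CPM or more in stage 4, 52 in stage 5 and 49 in stage 6, then 20 in stage 7 and 16 in stage 8. The rule chose the transcripts for this contrast, so the shares and these numbers describe it and test nothing.

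**Figure D3:**
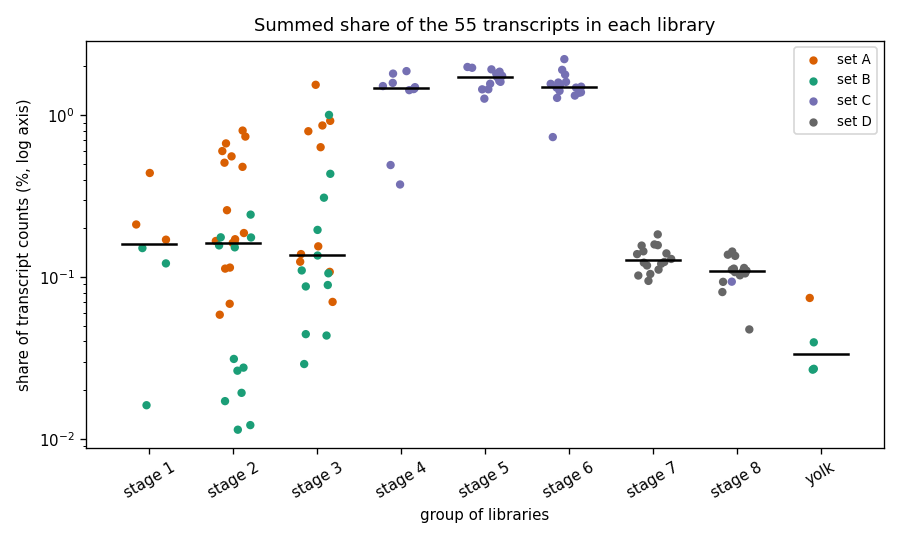
Share of transcript counts taken by the 55 transcripts together (percent, log axis) in each embryo or yolk library (points, coloured by spike-in set), with the group median as a bar. The points of stages 4 to 6 lie between 0.373% and 2.22%, those of stages 7 and 8 between 0.0474% and 0.183%, and those of stages 2 and 3 spread between 0.0114% and 1.54%.

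Within the peak, 3 embryos stood below the others. The share was 0.373% in stage 4 replicate 3 and 0.492% in stage 4 replicate 10, both rich in protist-high transcripts, and 0.732% in stage 6 replicate 6, which had 0.167% of such counts. With the protist-high transcripts taken out of the total, the first 2 came to 0.846% and 0.718%. Without the 4 protist-rich libraries the share averaged 1.58% ± 0.182 in stage 4 (n = 7), and the 2 groups of stages 4 to 6 and stages 7 and 8 then differed 13.4-fold. The protist sample itself had 9 counts of the 55 transcripts, 1 each in 9 of them, a share of 0.0052%. The stage 8 embryo in set C had a share of 0.0935% and 16 transcripts at 20 CPM or more, both within the range of the other stage 8 embryos.

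How much of each transcript was left after the peak separated the 55 into contrasting groups, described here after their values were seen. In 13 transcripts the stage 7 and stage 8 medians were both under 5% of the lowest of the stage 4, 5 and 6 medians. Of these 13, 11 had a stage 8 median of 0. These 13 included FW_v1_tr_01066 and 4 of the 5 most abundant, among them the pair that may share reads. FW_v1_tr_02238 and FW_v1_tr_06951, named for their level after their values were seen, had stage 7 medians of 22.0 and 18.4 CPM and stage 8 medians of 0. In 28 transcripts at least 10% was left in both late stages, with a median of 16.4% left in stage 7 and 14.4% in stage 8. FW_v1_tr_00992 was the most abundant of these. Its lowest, median and highest values were 833.1, 1233 and 1881 CPM in stage 6, 122.3, 209.0 and 350.8 CPM in stage 7 and 112.7, 188.1 and 257.6 CPM in stage 8. The remaining 14 transcripts lay between these groups or differed between the late stages.

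Counts were also taken per spike-in count, which multiplies all transcripts of a library by 1 factor. It therefore shifts the late stages against the peak by about as much for every transcript and does not set transcripts further apart, and the counts below say which of them cross another group's level under that shift. The amount of spike-in added to each embryo is not given in the sources used here, so this scale is set beside CPM and does not replace it. In the sum over the 55, the 12.6-fold difference between stages 4 to 6 and stages 7 and 8 in CPM came to 2.95-fold per spike-in count. The summed counts per 1000 spike-in counts averaged 154.1 ± 124.4 in stage 4, 193.7 ± 87.8 in stage 5 and 148.4 ± 85.4 in stage 6. They averaged 37.8 ± 15.1 in stage 7 and 65.1 ± 26.6 in stage 8. Of the 55 transcripts, 33 kept a lowest peak median above every other group on this scale, and 12 of those were at least 4 times higher. For the other 22, another group was as high or higher, which was stage 8 for 19, yolk for 2 and stage 7 for 1.

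Among the 13 transcripts with under 5% left, 12 stayed above every other group per spike-in count and 11 by at least 4 times. For FW_v1_tr_07865 the lowest peak median per 1000 spike-in counts was 11.7, against 0.312 in stage 7 and 0 in stage 8. Among the 28 with at least 10% left, 8 stayed above every other group and 0 did so by 4 times, with a median ratio of 0.869. The groups were cut by the CPM left, which enters this ratio, so their difference here largely follows from that cut. For FW_v1_tr_01977 the lowest peak median per 1000 spike-in counts was 5.10, against 2.59 in stage 7 and 5.72 in stage 8. FW_v1_tr_00992 had 12.2, against 6.27 in stage 7 and 10.8 in stage 8. For these 2 the stage 8 value per spike-in count was thus close to the lowest peak median, while their CPM was lower.

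**Figure D4:**
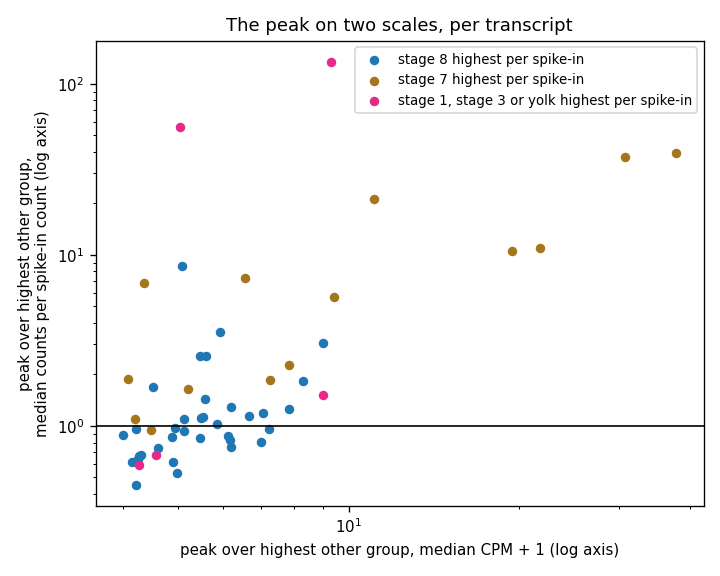
Ratio of the lowest peak median to the highest median of the other groups for 54 of the 55 transcripts (points), in CPM plus 1 (x, log axis) and in counts per spike-in count (y, log axis), coloured by the group that was highest per spike-in. FW_v1_tr_01066, whose other medians were all 0, has no ratio per spike-in and is not drawn; 22 points lie on or under the horizontal line at 1, and for 19 of these stage 8 was the highest other group.

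The comparison of stages 7 and 8 was not used to choose the transcripts. The filter on low counts kept 20 of the 55, which leaves out most of those that had nearly vanished. None of the 20 was called by edgeR's quasi-likelihood test at an adjusted p under 0.05, where 6.14% of all 8892 transcripts tested were called (4.46% higher and 1.68% lower in stage 8). With no adjustment 1 of these 20 and 1608 of all 8892 had a p under 0.05, and DESeq2 called 0 of the 20 and 825 of all. The median log2 fold change of stage 8 over stage 7 was -0.13 over the 20 and -0.02 over all transcripts tested. FW_v1_tr_14170 had the smallest p of those lower in stage 8, with a lowest, median and highest value of 0, 21.2 and 59.2 CPM in stage 8 and 13.9, 34.6 and 107.0 CPM in stage 7 (log2 fold change -0.77, SE 0.36, edgeR adjusted p = 0.243). FW_v1_tr_01977 had the smallest p of those higher in stage 8, with 7.65, 123.3 and 210.4 CPM in stage 8 and 58.7, 93.4 and 117.8 CPM in stage 7 (log2 fold change 0.24, SE 0.22, edgeR adjusted p = 0.624).

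When transcripts with low counts were kept, those that nearly vanished could be tested. With no filter, 6 of the 55 were called lower in stage 8 than in stage 7, where 2.26% of all transcripts were called lower. With a filter that asked for 10 counts or more in 50% of a group, 5 of 33 were called lower, where 1.74% of all were. These 5 had stage 8 medians of 0 and met that filter through stage 7, where they were higher, so nothing is read from their count against 1.74%. The largest of these changes that met both filters was in FW_v1_tr_07865, with counts in 1 of 15 stage 8 embryos and in 14 of 16 stage 7 embryos (edgeR log2 fold change -6.39 and adjusted p = 3.8e-07 with no filter, a fitted value that depends on the prior count). FW_v1_tr_07821 followed, with counts in 5 of 15 stage 8 embryos and 13 of 16 stage 7 embryos (-4.60, adjusted p = 0.000102), and it may share reads with the first. FW_v1_tr_02238, FW_v1_tr_06951 and FW_v1_tr_10783 were also called with both filters, named as these calls after their values were seen. With library sizes taken from the spike-ins, which moved the median log2 fold change of all transcripts to 1.01, 9 of the 20 were called higher in stage 8 and 0 lower, while 5874 of all 8892 transcripts were called higher and 4 lower.

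Inside the peak, calls among the 55 were about as rare as among all transcripts. All 55 could be tested there, and all 39 embryos belong to 1 spike-in set. The rule asked for a level in the lowest of the 3 stages, which favours even levels. In stage 5 against stage 4, edgeR called 0 of the 55, and 0% of all 6300 transcripts tested. At an unadjusted p under 0.05 there were 4 of the 55 and 868 of all, and DESeq2 called 1 of the 55 and 179 of all. In stage 6 against stage 5, edgeR called 0 of the 55, and 0% of all 6279 tested, with 6 of the 55 and 311 of all at an unadjusted p under 0.05. DESeq2 called 0 of the 55 and 3 of all. The median log2 fold changes over the 55 were 0.02 for stage 5 over stage 4 and -0.05 for stage 6 over stage 5, beside 0.04 and 0.02 over all transcripts tested.

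FW_v1_tr_01204 was the exception. It had a lowest, median and highest value of 14.2, 81.8 and 203.1 CPM in stage 6 embryos and 174.6, 297.7 and 561.7 CPM in stage 4 embryos. All 16 stage 6 embryos lay under the stage 4 median, and the 2 ranges overlapped only between 174.6 and 203.1 CPM. Stage 5 lay between them, with 33.1, 153.9 and 383.5 CPM. It was the 1 transcript of the 55 called in stage 6 against stage 4 (edgeR log2 fold change -2.11, SE 0.32, adjusted p = 0.00027), where 1.6% of all 6609 transcripts tested were called and 1.04% were lower. It was also the 1 called for any difference among stages 4, 5 and 6 (adjusted p = 9.6e-05), where 1.57% of 7937 were called. The log2 fold change was -2.02 without the protist-rich libraries (adjusted p = 0.0058). With library sizes taken from the spike-ins it was -2.06 and not called (adjusted p = 0.234), and no transcript of the 6609 was called at that setting. In the protist-rich stage 4 replicates 3 and 10, where the summed share was low, FW_v1_tr_01204 had 213.2 and 552.8 CPM.

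The transcripts with the smallest p between neighbouring stages did not pass the adjustment. FW_v1_tr_07821 had a lowest, median and highest value of 959.0, 2099 and 4363 CPM in stage 5 and 119.5, 1439 and 2061 CPM in stage 4, and 11 of 13 stage 5 embryos lay above the stage 4 median (edgeR log2 fold change 0.86, SE 0.28, adjusted p = 0.166). FW_v1_tr_01204 was lower in stage 5 than in stage 4 in 11 of 13 embryos by the same measure (-1.25, SE 0.33, adjusted p = 0.108). FW_v1_tr_14399 had 92.2, 261.5 and 435.3 CPM in stage 6 and 79.6, 190.3 and 261.4 CPM in stage 5 (0.61, SE 0.21, edgeR adjusted p = 0.88). The ranges of both pairs of groups overlapped.

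Single embryos varied by different amounts for different transcripts. The coefficient of variation of CPM over the 39 embryos had a median of 59.4% over the 55 and ran between 33.3% and 137%, beside a median of 64.3% over all 4532 transcripts at the level floor. The steadiest were FW_v1_tr_00992 at 33.3% and FW_v1_tr_02238 at 36.7%, both abundant. FW_v1_tr_06510 and FW_v1_tr_09615 varied most, at 137% and 112%. FW_v1_tr_06510 had 12.8, 38.1 and 348.8 CPM as its lowest, median and highest value in stage 5, where its highest embryo stood far above the median. FW_v1_tr_09615 had 0, 39.0 and 247.3 CPM in stage 6 and no count in 4 of the 39 embryos.

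The amount of RNA measured in an embryo was followed by log2 of transcript counts per spike-in count, with stage as a term. Within stages 4 to 6, 2 of the 55 transcripts took a larger share of counts in embryos with more transcript counts per spike-in count and 3 a smaller one, where 14.6% of all 7937 transcripts tested were called, 8.63% in the first direction and 6% in the second. FW_v1_tr_09587 rose by 0.64 on the log2 scale per log2 unit (SE 0.19, edgeR adjusted p = 0.0145), but by 0.48 and without passing the test when the protist-rich libraries were left out (adjusted p = 0.0951). FW_v1_tr_00140 rose by 0.53 (SE 0.12, adjusted p = 0.00165). FW_v1_tr_05008 fell by 0.88 (SE 0.23, adjusted p = 0.00729) and FW_v1_tr_11365 fell by 0.36 (SE 0.10, adjusted p = 0.0131), and by 0.31 without passing the test when no filter was applied (adjusted p = 0.0572). The transcript totals enter both sides of this slope.

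In stages 2 and 3, before the peak, some embryos already carried most of the 55 transcripts. The share was highest in stage 3 replicate 4 of set A, at 1.54% with 48 of the 55 at 20 CPM or more, which is within the range of stages 4 to 6. Stage 3 replicate 15 of set B followed with 1.00% and 42 transcripts, and stage 2 replicate 5 of set A had 0.803% and 45 transcripts. A share over 0.5% was found in 6 of 17 stage 2 embryos of set A and 0 of 12 of set B, and in 5 of 10 stage 3 embryos of set A and 1 of 12 of set B. The other embryos of these stages went down to 0.0114%, under the lowest yolk sample at 0.0267%. These high values lie outside the spike-in set of the peak.

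The difference between these 2 stages was tested next. In stage 3 against stage 2, tested over 47 libraries, the filter kept 9 of the 55, and edgeR called 0 of them, where 1.21% of all 1982 transcripts tested were called (0.252% higher and 0.959% lower in stage 3). With no adjustment 3 of the 9 and 187 of all 1982 had a p under 0.05, and DESeq2 called 0 of the 9 and 39 of all. The median log2 fold change of stage 3 over stage 2 was 0.89 over the 9 and 0.09 over all transcripts tested. The change was above 0 for 7 of the 9 and for 58.2% of all. With no filter, 6 of the 55 were called higher in stage 3 and 0 lower, where 3% of all 14324 were called higher. The medians were then 0.98 over the 55 (49 of them higher) and 0.28 over all (64.3% of them higher). The smallest p of those higher in stage 3 was that of FW_v1_tr_00992, with 20.8, 141.3 and 1134 CPM in stage 3 and 0, 85.5 and 960.4 CPM in stage 2 (log2 fold change 1.22, SE 0.52, edgeR adjusted p = 0.385). FW_v1_tr_10783 had the smallest p of those lower, with 0, 121.5 and 1112 CPM in stage 3 and 0, 102.4 and 1974 CPM in stage 2 (-0.18, SE 0.67, edgeR adjusted p = 0.981). With the set as a term, within set A and within set B, 0 of the 9, 8 and 3 transcripts tested were called.

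Between the spike-in sets of the same stages, 4 of the 9 were lower in set B than in set A and 0 higher, where 29.9% of all 1982 transcripts tested were called, 11.7% lower and 18.2% higher. Within set A alone the filter kept 8 of the 55, and within set B alone 3. A lower level in set B was thus favoured among the 9, and nothing is read from their counts against those of all transcripts. With no filter, 22 of the 55 were lower in set B and 0 higher, where 5.08% of all 14324 were lower and 8.64% higher. FW_v1_tr_08768 had a lowest, median and highest value of 0, 7.52 and 224.9 CPM in the 24 embryos of set B and 0, 69.0 and 1673 CPM in the 27 of set A, 4 of which were too shallow for the test (log2 fold change -2.32, SE 0.66, edgeR adjusted p = 0.00614). FW_v1_tr_11365 had 0, 14.9 and 223.9 CPM in set B and 0, 119.5 and 929.8 CPM in set A (-2.26, SE 0.56, adjusted p = 0.00185). With RLE size factors 7 of the 9 were lower in set B, and over all transcripts tested the calls turned from 360 higher and 232 lower to 211 higher and 435 lower. The sets are groups of libraries found from their spike-ins and not groups of the study, and what differs between them was not tested.

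**Figure D5:**
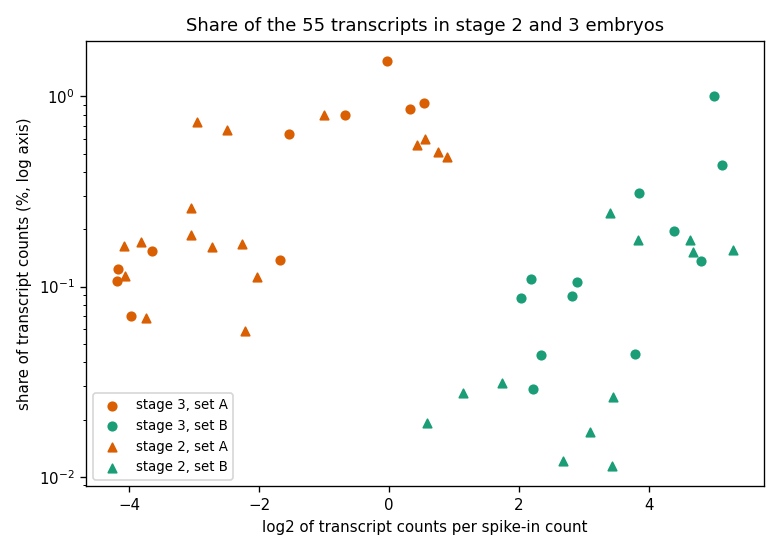
Share of the 55 transcripts (percent, log axis) against log2 of transcript counts per spike-in count in each embryo of stages 2 and 3 (points, shape by stage and colour by spike-in set). In set A the shares reach 1.54% and in set B 1.00%, and the highest share of each set lies toward the right of its own cloud. In set A, embryos further right than that one had lower shares, with 0.479% in the embryo furthest right, stage 2 replicate 15.

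In stages 2 and 3, most of the few transcripts that passed the filter took larger shares in embryos with more transcript counts per spike-in count. With stage and set as terms, 8 of the 9 tested rose with it and 0 fell, where 46.1% of all 1982 transcripts tested were called, 31.7% rising and 14.4% falling. FW_v1_tr_06951 rose by 1.32 on the log2 scale per log2 unit (SE 0.20, edgeR adjusted p = 6e-07) and FW_v1_tr_08768 by 1.30 (SE 0.18, adjusted p = 2e-07). Within set A alone 3 of 8 rose, where 9.51% of all transcripts tested did, and within set B alone 0 of 3 rose, where 16.6% did. When every library had to reach 25% of the median total, 7 of 13 rose, where 13.4% of all did. With RLE size factors 5 of the 9 rose, and the calls over all transcripts were 548 higher and 401 lower in place of 629 and 285. The filter asks for counts, which transcripts this low reach more readily through embryos with many transcript counts. A rise was thus favoured among those tested, and nothing is read from their counts against those of all transcripts. The test was added after the embryos' values had been seen, and the ratio shares the library totals with the counts.

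The 55 transcripts moved together weakly across embryos. After stage means were subtracted, Spearman's rho between pairs of them had a median of 0.163 over the 39 embryos of stages 4 to 6, and 0.0996 between pairs of the other 4477 transcripts at the level floor. Without the protist-rich libraries (n = 35) the medians were 0.081 and 0.0345. Over the 32 embryos of stages 2 and 3 with at least 100000 transcript counts the medians were 0.284 and 0.0794. There the means of each stage within each spike-in set were subtracted. The other transcripts had the same level floor in stages 4 to 6 only. In stages 2 and 3 the rule capped the level of the 55 and not theirs, so the 2 medians there compare transcripts of unlike level. The points share their libraries and depth, so these values are a description.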

How the data were processed

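The authors' deposited table held raw counts, as whole numbers, for each transcript model and each spike-in, with HTSeq's own counters at its end. CASAVA 1.8, Bowtie2 2.1.0 and HTSeq 0.5.4p3 are named per the submitters' processing notes, and the strand setting and the annotation are not given in the sources used here. The counter for unaligned reads took 63.6% of all reads and that for reads in no feature 2.56%, and 3 other counters were 0. Libraries were treated with a nuclease that digests double-stranded DNA, per the labels' protocols, which lowers abundant sequences. The members and lists were chosen with earlier results of these data known.

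CPM was computed over 15121 of 15124 transcript models. The 3 left out followed the spike-ins. Spike-in sets came from Ward clustering of centred log2 proportions (0.5 added) over spike-ins that reached 5 counts in 95% of the libraries. Tests used edgeR 4.0.16 in R 4.3.3 (TMM, filterByExpr by group, robust quasi-likelihood F test) over the whole table with Benjamini-Hochberg adjustment at 0.05, without libraries under 5% of the median total. Filters, factors and DESeq2 1.42.0 were tried as alternatives. The scripts were tested on simulated data. The named transcripts are the 2 with the highest ratio, the 2 with the highest level, those at the threshold, those of smallest and largest variation, and per comparison at most 2 in each direction with the largest called change, or else the smallest p. Labels give no capsule of origin, so p-values rest on the spread among single embryos, some of which may share one. Replicate numbers follow deposition order and pair nothing. Counts were taken as reads, so counting error is only part of the spread.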

Additional observations from a re-analysis of the deposited data

How the results depend on the processing

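No paired analysis was possible because replicate numbers only name the embryos. The number of transcripts chosen depended on the rule. Group means in place of medians gave 7 (7 shared with the 55), early stages and yolk from set A alone 29 (24 shared), a ratio of 8 gave 11 and a ratio of 2 gave 415. The other settings gave 40 to 76, with 76 per spike-in count and no level floor (12 shared). The summed share in stages 4 to 6 over stages 7 and 8 was 3.65 on the log2 scale and 1.56 per spike-in count. Of the 55, stage 5 against stage 4 gave 1 call with DESeq2 (2.84% of all) and 0 to 1 when each embryo was left out in turn, the 1 being FW_v1_tr_01204 without stage 4 replicate 1, where all calls numbered 182 against 0. Stage 6 against stage 4 gave 0 calls with spike-in library sizes and 1 to 1 with embryos left out (36 to 288 of all transcripts), and any difference among stages 4 to 6 gave 2 with DESeq2 (3.86% of all). Over all transcripts, stage 6 against stage 4 gave 106 calls, 331 with DESeq2 and 13 without the protist-rich libraries, and any difference among stages 4 to 6 gave 125, 306 and 17. Stage 8 against stage 7 gave 6 of 55 with no filter and 5 of 33 with at least 10 counts in 50% of a group, all lower (2.26% and 1.74% of all), 9 of 20 higher with spike-in library sizes (66.1% of all) and 1 of 23 lower when stage 8 replicate 12, the one in set C, was left out (1.63%). Stage 3 against stage 2 gave 6 of 55 with no filter, all higher (3% of all). Set B against set A gave, all lower, 8 of 9 with DESeq2 (26.6% of all), 7 of 9 with RLE factors (21.9%), 22 of 55 with no filter (5.08%) and 11 of 13 when every library had to reach 25% of the median total (20.5%). As above, nothing is read from those of these counts that rest on the filter. The slope on transcript counts per spike-in count gave 9 of 55 with DESeq2 in stages 4 to 6, 3 higher and 6 lower (11.2% and 9.13% of all). In stages 2 and 3 it gave, all higher, 5 of 9 with RLE factors (27.6% of all), 42 of 55 with no filter (34.3%), 3 of 8 in set A (9.51%) and 0 of 3 in set B (16.6%). The values of 2 transcripts changed sign without passing the test. FW_v1_tr_14170 in stage 8 against stage 7 came to 0.39 with spike-in library sizes, and FW_v1_tr_10783 in stage 3 against stage 2 came to 0.015 with no filter. The causes were not tested, apart from the number of transcripts a filter lets through. Of the other values of named transcripts, 168 kept direction and side of the threshold, 3 passed it and 3 no longer passed. The main limits are the change of spike-in set at both edges of the peak, the shallow libraries of stages 1 to 3, and transcripts known by ID alone.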
